A study of Homo sapiens with 24 samples.

Results

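The interferon regulatory factors (IRFs) are transcription factors that carry interferon signals to the promoters of interferon-stimulated genes, and 8 of them, IRF1, IRF2, IRF3, IRF4, IRF5, IRF7, IRF8 and IRF9, were followed here through 24 libraries of 2 clear cell renal carcinoma (ccRCC) cell lines. The members were the rows of the deposited count table whose Ensembl identifier belongs to one of these 8 symbols, out of 39321 genes in the table. The rule goes by symbol and uses no measured value, but the members were chosen with earlier results of these data known. IRF1, IRF2, IRF7 and IRF9 rose with interferon-γ (IFNγ) in the libraries of both lines. IRF1 went from 58.7 ± 2.17 to 1445 ± 25.6 CPM (each count scaled to a common library size) in A498 and from 38.5 ± 0.706 to 1053 ± 66.0 CPM in 786-O (mean ± SD, n = 3 libraries). With the siRNA against PD-L1 and no IFNγ, IRF1 and IRF7 fell in A498, and no member was called in 786-O.

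The study silenced PD-L1, the immune checkpoint ligand encoded by CD274, in ccRCC cells exposed to IFNγ and sequenced their RNA. A498 and 786-O are established human lines, derived from kidney carcinomas. Cells of each line were transfected with 20 nM of a pooled control siRNA (Cnsi) or of a pooled siRNA against PD-L1 (PD-L1si), and 24 h later received no IFNγ or 50 ng/mL IFNγ for 24 h, so that each line has 3 libraries in each of 4 groups, named Cnsi and PD-L1si where no IFNγ was given and Cnsi IFNγ and PD-L1si IFNγ where it was. Some labels call the PD-L1 samples a knockout, whereas the siRNA label and the methods describe a transient knockdown. The methods and the extraction label list 3 groups for RNA and do not name PD-L1si without IFNγ, so that group rests on its sample labels alone. No source says that the 3 libraries of a group came from separate cultures, so p-values measure the spread between these libraries, which may be technical.

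All members share an amino-terminal DNA-binding domain that recognises GAAA repeats, the core of the interferon-stimulated response element (ISRE). IFNγ acts through its receptor and the kinases JAK1 and JAK2 on genes with gamma-activated sites (GAS), and IRF1 is a textbook direct target that in turn activates antigen presentation genes and chemokines. IRF2 binds the same element and is best known as an antagonist of IRF1. IRF3 and IRF7 are activated by phosphorylation through TBK1 and IKKε and drive type I interferon genes. IRF5 acts downstream of Toll-like receptors, IRF4 and IRF8 are mainly factors of lymphoid and myeloid cells, and IRF9 is the DNA-binding part of the ISGF3 complex that answers type I interferon. Tumour cells of the kidney use the same pathway to raise PD-L1 and the HLA genes when IFNγ is present.

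Promoter windows show where the GAS lies in the members that have a window in the RefSeq table used here (build GRCh38.p14, 250 bases before to 50 bases after each annotated start). Of the 8 members, 5 had at least 1 window (9 windows in all), and IRF2, IRF3 and IRF7 had none. The windows of IRF1 and IRF9 are printed because both genes rose with IFNγ in the libraries of both lines, and the first of the 4 IRF5 windows because IRF5 was not called with IFNγ in either. Capitals mark the GAS pattern TTCNNNGAA, which is its own reverse complement, and each sequence is read 5′ to 3′ on the strand of the gene.
IRF1, chr5:132490724-132491023, minus strand: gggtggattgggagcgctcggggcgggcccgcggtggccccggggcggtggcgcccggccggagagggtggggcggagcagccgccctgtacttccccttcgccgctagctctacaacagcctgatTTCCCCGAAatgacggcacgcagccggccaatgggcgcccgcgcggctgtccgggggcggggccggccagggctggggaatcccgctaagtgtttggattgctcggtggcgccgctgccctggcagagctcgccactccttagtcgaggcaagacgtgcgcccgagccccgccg
IRF9, chr14:24161015-24161314, plus strand: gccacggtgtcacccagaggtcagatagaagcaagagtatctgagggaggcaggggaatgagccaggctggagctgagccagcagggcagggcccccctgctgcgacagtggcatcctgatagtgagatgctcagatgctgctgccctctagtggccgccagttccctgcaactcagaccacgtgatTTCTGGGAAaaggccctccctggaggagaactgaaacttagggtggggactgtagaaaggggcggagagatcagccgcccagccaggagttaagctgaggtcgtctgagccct
IRF5, chr7:128937677-128937976, plus strand: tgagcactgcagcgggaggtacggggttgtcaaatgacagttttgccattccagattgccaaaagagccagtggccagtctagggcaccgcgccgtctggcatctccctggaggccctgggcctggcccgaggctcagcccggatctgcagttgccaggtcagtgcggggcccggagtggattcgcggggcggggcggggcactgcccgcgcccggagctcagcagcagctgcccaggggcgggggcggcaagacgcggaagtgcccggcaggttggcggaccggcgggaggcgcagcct
The pattern starts 124 bases before the start in IRF1 and 63 bases before it in IRF9, and it was present in 7.66% of the 35116 windows of this length. Neither strand of any member window held the ISRE core GAAANNGAAA, which was present in 3.57% of all windows. The windows of IRF4, IRF5 and IRF8 held neither pattern. Both IRF8 windows lie downstream of the start of its main transcript (85899162), the first beginning at 85902580. The promoter at the main IRF8 start was therefore not searched. A match describes the letters of the window only, and binding was not measured.

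The libraries held 19256316 to 27907526 counts in A498 and 26807875 to 30350461 in 786-O. The A498 libraries were sequenced on a NovaSeq and the 786-O libraries on a NextSeq, so line and sequencer cannot be told apart in any comparison between the lines. The line is given here by label only, and exchanged line labels would turn the sign of each difference between the lines while leaving the values within a set of libraries as they are. In the libraries labelled 786-O, 4670 genes were at 0 in all 12 libraries, and 1475 of these had over 1000 counts in A498, among them IFNGR1, JAK2 and STAT3, so genes at 0 there were treated as not measured. None of the 8 members was among them. CD274, the gene targeted by the siRNA, had a mean of 5.07 CPM in Cnsi, 194 CPM in Cnsi IFNγ, 0.916 CPM in PD-L1si and 27.7 CPM in PD-L1si IFNγ in A498, and of 4.08, 60.4, 1.52 and 31.4 CPM in 786-O. Of 13 markers of ccRCC and renal epithelium, 12 to 13 had counts in each A498 library, and PAX2 and VEGFA were among the genes at 0 in 786-O. Summed leukocyte markers lay at 0.580 to 1.12 CPM in A498 and 5.01 to 14.0 CPM in 786-O, most of it ITGAM, while the defining leukocyte genes PTPRC and CD2 had at most 3 counts in a library.

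Of the 8 members, 6 passed the filter on low counts in A498 and 7 in 786-O. IRF4 passed in neither and IRF8 passed in 786-O alone. A gene was called when edgeR's quasi-likelihood test, fitted on all genes of a line, gave a Benjamini-Hochberg adjusted p under 0.05 together with a log2 fold change over 0.5 in size. CPM values are scaled between libraries and are not corrected for length, so they are compared between libraries and not between genes. In bulk RNA, fewer cells that express a gene and less RNA per cell cannot be told apart.

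IRF1, the main transcriptional mediator of IFNγ, lies on chromosome 5 at 132440440 to 132508719 (minus strand, GRCh38). In A498 its level in Cnsi was 56.3, 59.2 and 60.6 CPM, and in Cnsi IFNγ it was 1436, 1475 and 1426 CPM. In 786-O the corresponding levels were 38.6, 37.8 and 39.2 CPM and 979, 1105 and 1076 CPM. Every library with IFNγ was far above every library without it, in both lines. IRF1 rose 24.6-fold in A498 (log2 fold change 4.62, SE 0.045, adjusted p = 1.02e-40) and 27.3-fold in 786-O (4.77, SE 0.057, adjusted p = 3.11e-28). This was the steepest rise among the members in either line. The antisense gene IRF1-AS1 overlaps 16.3% of the IRF1 exon bases on the opposite strand and had 16.4 to 28.5% of the IRF1 counts, and VIM-AS1, another antisense gene, had 26.0 to 34.1% of the VIM counts. Counting used strand setting 1, and whether that setting suits the kit was not tested, so reads of IRF1 and IRF1-AS1 may not be fully told apart.

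IRF2, the competitor of IRF1 at the same element, lies on chromosome 4 at 184385702 to 184474558 (minus strand). Its level in A498 was 16.7, 16.4 and 17.3 CPM in Cnsi and 47.4, 49.3 and 50.4 CPM in Cnsi IFNγ. In 786-O it was 31.2, 28.1 and 32.4 CPM in Cnsi and 73.1, 78.4 and 78.5 CPM in Cnsi IFNγ. The groups did not overlap in either line. IRF2 rose 2.92-fold in A498 (log2 fold change 1.55, SE 0.057, adjusted p = 4.19e-23) and 2.51-fold in 786-O (1.33, SE 0.058, adjusted p = 3.85e-16). Because IRF1 rose more than IRF2, the ratio of their counts went from 3.50 ± 0.121 to 29.5 ± 1.08 in A498 and from 1.26 ± 0.0702 to 13.7 ± 0.349 in 786-O.

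IRF3, the constitutive factor of the type I interferon genes, lies on chromosome 19 at 49659569 to 49665875 (minus strand). In A498 it stood at 28.7, 30.7 and 29.9 CPM in Cnsi and at 35.0, 34.3 and 37.1 CPM in Cnsi IFNγ. In 786-O it stood at 72.4, 77.3 and 70.4 CPM in Cnsi and at 136, 141 and 145 CPM in Cnsi IFNγ. The groups were separate in both lines, but the step was small in A498 and near a doubling in 786-O. IRF3 rose 1.92-fold in 786-O (log2 fold change 0.94, SE 0.051, adjusted p = 4.46e-14). In A498 the ratio was 1.19 (log2 fold change 0.25, SE 0.061, adjusted p = 0.000562), which passed the p threshold and missed the fold-change threshold. BCL2L12 overlaps 14.2% of the IRF3 exon bases on the opposite strand.

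IRF7, the inducible factor that amplifies type I interferon, lies on chromosome 11 at 612553 to 615983 (minus strand). Its A498 levels were 6.22, 5.81 and 5.06 CPM in Cnsi and 51.4, 44.0 and 52.9 CPM in Cnsi IFNγ. Its 786-O levels were 14.5, 16.4 and 16.3 CPM in Cnsi and 47.3, 46.7 and 46.8 CPM in Cnsi IFNγ. Within each line, every library with IFNγ was above every library without it. IRF7 rose 8.65-fold in A498 (log2 fold change 3.11, SE 0.084, adjusted p = 4.64e-27) and 2.99-fold in 786-O (1.58, SE 0.067, adjusted p = 2.40e-16).

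IRF9, the DNA-binding subunit of ISGF3, lies on chromosome 14 at 24161234 to 24168043 (plus strand). The A498 libraries held 30, 27 and 26 counts in Cnsi and 48, 58 and 51 counts in Cnsi IFNγ. The 786-O libraries held 41, 37 and 21 counts in Cnsi and 83, 56 and 82 counts in Cnsi IFNγ. The counts with IFNγ were above those without in every library. IRF9 rose 2.02-fold in A498 (log2 fold change 1.01, SE 0.216, adjusted p = 0.000107) and 2.46-fold in 786-O (1.30, SE 0.224, adjusted p = 4.24e-05). Of the 1626 exon bases of its main transcript, 1513 (93.1%) are shared on the same strand with a readthrough gene, which itself had 0 to 17 counts. The methods list no option to count reads that overlap several genes, so the IRF9 level is uncertain, and whether reads were lost this way was not tested.

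IRF5, a factor of Toll-like receptor signalling, lies on chromosome 7 at 128937457 to 128950038 (plus strand). In A498 it was at 48.6, 46.8 and 49.1 CPM in Cnsi and 50.7, 47.4 and 54.1 CPM in Cnsi IFNγ. In 786-O it was at 14.7, 14.6 and 13.5 CPM in Cnsi and 16.6, 17.1 and 16.1 CPM in Cnsi IFNγ. The A498 groups overlapped and the 786-O groups did not. The log2 fold change was 0.07 in A498 (SE 0.052, adjusted p = 0.232) and 0.22 in 786-O (SE 0.084, adjusted p = 0.0414), and IRF5 was called in neither line.

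Counted over members, 4 of 6 tested members were called higher with IFNγ in Cnsi in A498, where 18.2% of all genes tested were called higher, and 6 of 7 in 786-O, where 11.1% were. No member was called lower. The other member called in 786-O was IRF8, which passed the filter on low counts only through its libraries with IFNγ and so had to differ, and without it 5 of 6 were called.

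**Figure D1:**
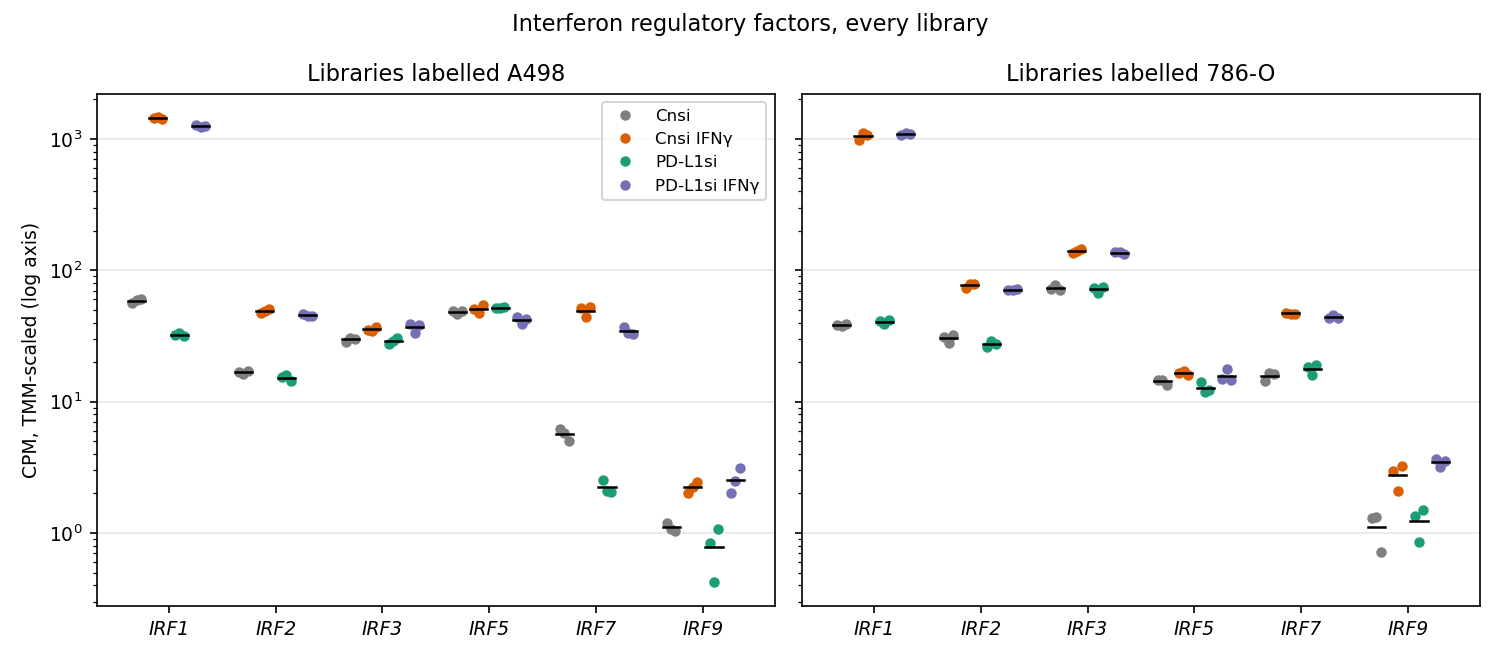
Level of 6 members in every library, in CPM on a log axis, for A498 and 786-O in separate panels and the 4 groups in separate colours, where points are libraries and black bars are means of 3. IRF1 lies at 979 CPM or more in each library with IFNγ and at 60.6 CPM or less in each library without it, and in A498 the PD-L1si libraries of IRF1 and IRF7 sit below the Cnsi libraries.

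IFNγ also raised IRF1, IRF2, IRF7 and IRF9 in the libraries of both lines that had received PD-L1si, and IRF3 in 786-O. IRF1 levels were 32.0, 33.3 and 31.9 CPM in PD-L1si and 1282, 1239 and 1244 CPM in PD-L1si IFNγ in A498, a 38.8-fold rise. In 786-O they were 41.4, 39.2 and 41.6 CPM and 1076, 1117 and 1086 CPM, a 26.8-fold rise. IRF7 rose 15.2-fold in A498 and 2.47-fold in 786-O. On the log2 scale IRF2 rose by 1.58 in A498 and 1.38 in 786-O, IRF9 by 1.65 and 1.48, and IRF3 by 0.93 in 786-O. IRF3 in A498 reached a log2 fold change of 0.36 with an adjusted p of 4.86e-06 and missed the fold-change threshold. IRF5 in A498 was lower with IFNγ in all 3 libraries, at 44.1, 39.0 and 42.8 CPM against 51.7, 51.7 and 52.6 CPM, with a log2 fold change of -0.31 (adjusted p = 5.95e-06) that also missed it. In 786-O the IRF5 log2 fold change was 0.30 (adjusted p = 0.00633). Again 4 of 6 members were called higher in A498 (17.6% of all genes) and 6 of 7 in 786-O (11% of all genes), or 5 of 6 without IRF8, which again passed the filter only through its libraries with IFNγ.

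Without IFNγ, PD-L1si lowered IRF1 and IRF7 in A498. The IRF1 libraries at 32.0, 33.3 and 31.9 CPM were all below the Cnsi libraries at 56.3, 59.2 and 60.6 CPM. IRF1 thus fell to 0.552 of its Cnsi level (log2 fold change -0.86, SE 0.046, adjusted p = 5.05e-17). IRF7 was at 2.54, 2.11 and 2.07 CPM with PD-L1si against 6.22, 5.81 and 5.06 CPM in Cnsi, with no overlap. IRF7 fell to 0.394 of its Cnsi level (log2 fold change -1.34, SE 0.141, adjusted p = 1.21e-09). These were 2 of 6 members called lower, where 5.6% of all genes were called lower. The other members tested in A498 were not called: IRF2 stood at -0.14 on the log2 scale (adjusted p = 0.0974), IRF3 at -0.04 (0.685), IRF5 at 0.11 (0.104) and IRF9 at -0.47 (0.191). The IRF1 to IRF2 count ratio was 2.13 ± 0.0777 with PD-L1si against 3.50 ± 0.121 in Cnsi.

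No member was called with PD-L1si in 786-O without IFNγ, where 2.81% of all genes were called in either direction. IRF1 was at 41.4, 39.2 and 41.6 CPM against 38.6, 37.8 and 39.2 CPM in Cnsi (log2 fold change 0.08, adjusted p = 0.398). IRF7 was at 18.5, 16.0 and 19.1 CPM against 14.5, 16.4 and 16.3 CPM (0.18, adjusted p = 0.0957). The libraries of both groups overlapped for each gene. IRF2, IRF3, IRF5, IRF8 and IRF9 had log2 fold changes of -0.16, -0.04, -0.16, -0.52 and 0.14, and IRF2 had the smallest adjusted p of these, 0.0856. IRF2 and IRF7 had an unadjusted p under 0.05 by edgeR, a threshold at which the share of all genes was not taken. DESeq2, at the adjusted p and fold change required for a call, gave 0 members.

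Under IFNγ, PD-L1si lowered IRF7 in A498, and IRF1 did not pass the fold-change threshold. IRF7 was at 36.9, 33.2 and 32.6 CPM in PD-L1si IFNγ against 51.4, 44.0 and 52.9 CPM in Cnsi IFNγ, and the groups did not overlap. IRF7 fell to 0.695 of the Cnsi IFNγ level (log2 fold change -0.52, SE 0.065, adjusted p = 4.12e-08). It was the 1 of 6 members called, where 5.75% of all genes were called lower, and the call rests on the fold-change threshold: it was lost without Cnsi IFNγ replicate 1 (-0.50), without Cnsi IFNγ replicate 3 (-0.48) or without PD-L1si IFNγ replicate 3 (-0.49). IRF1 at 1282, 1239 and 1244 CPM lay below Cnsi IFNγ at 1436, 1475 and 1426 CPM, with a log2 fold change of -0.20 (adjusted p = 3.83e-05) that missed that threshold, as did IRF5 at -0.27 (adjusted p = 0.000135). IRF2, IRF3 and IRF9 had log2 fold changes of -0.11, 0.07 and 0.17. In 786-O no member was called, where 3.03% of all genes were called in either direction. IRF1 there stood at 0.05 on the log2 scale (adjusted p = 0.526) and IRF7 at -0.09 (adjusted p = 0.374). IRF2, IRF3, IRF5, IRF8 and IRF9 stood at -0.11, -0.05, -0.08, 0.64 and 0.32. At an unadjusted p under 0.05 edgeR gave 0 members. DESeq2, at the adjusted p and fold change required for a call, also gave 0.

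**Figure D2:**
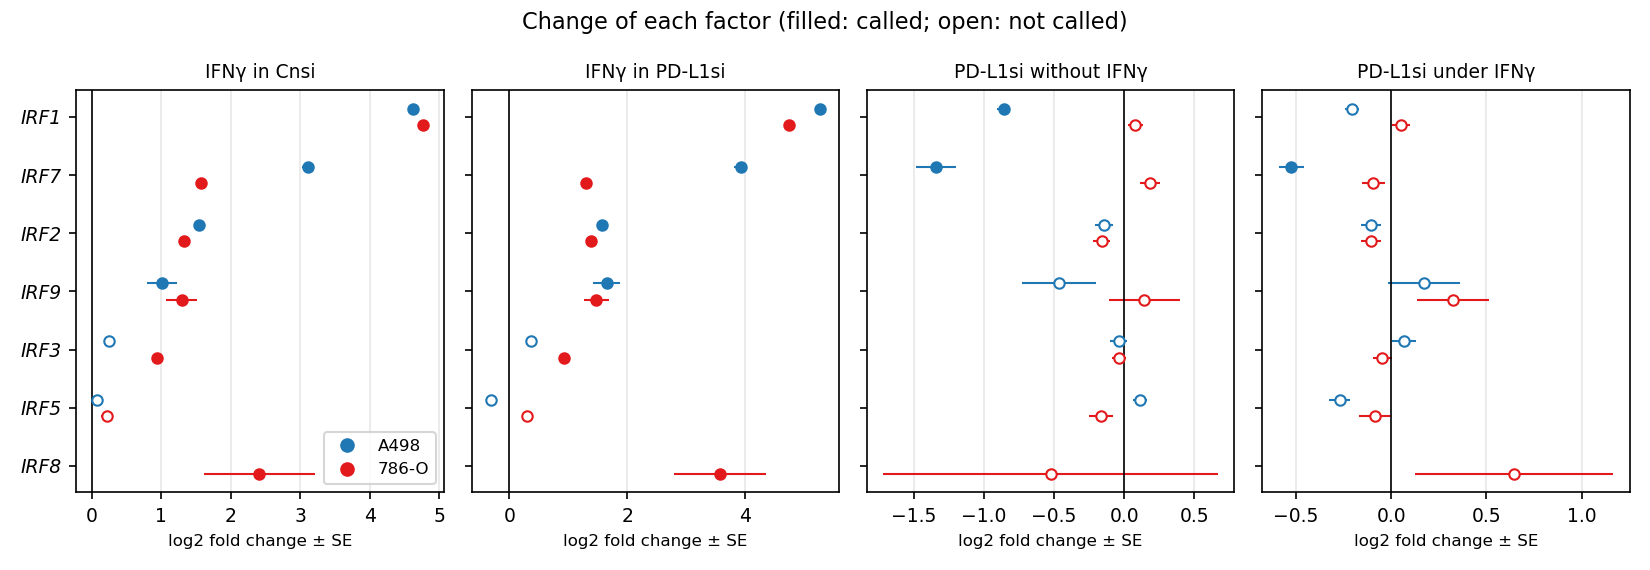
Log2 fold change with its SE for 7 members in 4 comparisons (IFNγ in Cnsi, IFNγ in PD-L1si, PD-L1si without IFNγ, PD-L1si under IFNγ), with A498 in blue, 786-O in red and filled points for called members. The IFNγ panels reach 5.28 for IRF1 in A498 with PD-L1si, while the called points in the PD-L1si panels are IRF1 at -0.86 and IRF7 at -1.34 without IFNγ and IRF7 at -0.52 under IFNγ, all in A498.

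Whether the IFNγ response differed between PD-L1si and Cnsi was tested by the interaction term. In A498 the log2 rise with IFNγ was larger with PD-L1si by 0.65 for IRF1 (SE 0.059, adjusted p = 6.55e-10) and by 0.82 for IRF7 (SE 0.157, adjusted p = 0.000430), where 1.81% of all genes were called higher. For both genes the level under IFNγ was not higher with PD-L1si, and the PD-L1si libraries without IFNγ were lower. IRF5 had an interaction of -0.38 (adjusted p = 0.000566), under the fold-change threshold, and IRF9 of 0.64 (adjusted p = 0.249), IRF2 of 0.04 and IRF3 of 0.11. In 786-O no member was called, where 0.099% of all genes were called in either direction. IRF7 had -0.28 (adjusted p = 0.376) and was the 1 member with an unadjusted p under 0.05 by edgeR. The share of all genes at that unadjusted threshold was not taken. DESeq2, at the adjusted p and fold change required for a call, gave 0 members in 786-O. The interaction there was -0.03 for IRF1, 0.05 for IRF2, -0.01 for IRF3, 0.08 for IRF5, 1.17 for IRF8 and 0.18 for IRF9.

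The responses were compared between the lines in a model over all 24 libraries, as the difference 786-O minus A498, whose values depart slightly from a subtraction of the fits per line because the libraries were scaled together. The log2 rise of IRF3 with IFNγ in Cnsi was larger in 786-O by 0.63 (SE 0.080, adjusted p = 3.38e-09). The rise of IRF7 differed by -1.59 (SE 0.113, adjusted p = 3.89e-17), being larger in A498. These were 2 of 6 members tested, where 21.2% of all genes were called, and whether the members exceed that share was not tested. For IRF1 the difference was 0.10 (adjusted p = 0.346), for IRF2 -0.27 (adjusted p = 0.00859, under the fold-change threshold), for IRF5 0.09 (adjusted p = 0.553) and for IRF9 0.23 (adjusted p = 0.710).

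For PD-L1si without IFNγ, a comparison added after the values were seen, the effect differed between the lines by 0.91 for IRF1 (SE 0.077, adjusted p = 2.67e-13) and by 1.50 for IRF7 (SE 0.153, adjusted p = 7.84e-11), where 3.16% of all genes were called. In both cases A498 fell and 786-O was not called. The siRNA target CD274 also fell less in 786-O. Its log2 fold change with PD-L1si was -2.47 in A498 and -1.42 in 786-O without IFNγ, and -2.81 and -0.94 under it. Whether this unequal silencing has a part in the differences between the lines was not tested. IRF5 differed by -0.30 (adjusted p = 0.0419), under the fold-change threshold, IRF9 by 0.59 (adjusted p = 0.449), IRF2 by -0.04 and IRF3 by -0.02. For PD-L1si under IFNγ no member was called, where 3.95% of all genes were, and IRF1 at 0.25 (adjusted p = 0.00676) and IRF7 at 0.43 (adjusted p = 0.000883) passed the p threshold alone. IRF2, IRF3, IRF5 and IRF9 differed there by -0.0062, -0.12, 0.18 and 0.14.

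**Figure D3:**
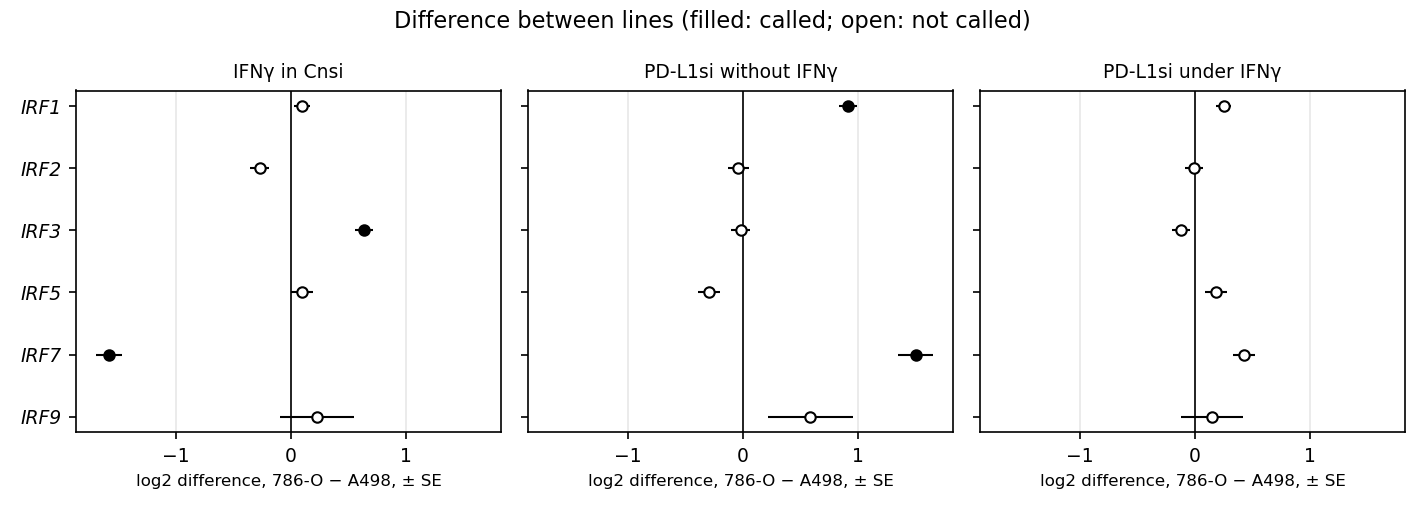
Difference between the lines, 786-O minus A498 on the log2 scale with its SE, of the response to IFNγ in Cnsi, of PD-L1si without IFNγ and of PD-L1si under IFNγ, 1 panel each, with filled points for called members. IRF7 lies at -1.59 in the first comparison and at 1.50 in the comparison without IFNγ, and under IFNγ no point is filled.

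IRF8 and IRF4 were close to the limit of detection. IRF8, a factor of myeloid and B cells, lies on chromosome 16 at 85899116 to 85922606 (plus strand). In 786-O it had 0, 1 and 2 counts in Cnsi, 4, 5 and 7 in Cnsi IFNγ, 2, 0 and 0 in PD-L1si and 9, 7 and 10 in PD-L1si IFNγ. All 6 libraries with IFNγ were above all 6 without. From 3 counts in Cnsi to 16 in Cnsi IFNγ the ratio was 5.36 (exact 95% interval 1.53 to 28.7, counting error only), and from 2 in PD-L1si to 26 in PD-L1si IFNγ it was 12.8 (3.21 to 111). These counts are a description, since IRF8 was tested only because its libraries with IFNγ passed the filter. The fitted log2 fold changes were 2.41 (1.84 to 3.26 on leaving out each library in turn) and 3.58 (3.06 to 6.17). The call in Cnsi was lost without Cnsi replicate 1, without Cnsi IFNγ replicate 3 and with DESeq2. In A498, IRF8 had 5 counts over 12 libraries, 9 of them at 0. IRF4, a factor of lymphocytes on chromosome 6 at 391739 to 411443 (plus strand), had 4 counts over the 12 A498 libraries and 5 over the 12 libraries of 786-O. Leukocyte markers moved with IRF8 in 786-O. Of 12 such markers 10 had a row and 9 had counts there. Their sum was 5.01 to 7.26 CPM without IFNγ and 12.7 to 14.0 CPM with it, ITGAM ranged from 119 to 333 counts, and PTPRC, CD2 and TYROBP had at most 3, 1 and 3 counts in a library. Their part in the IRF8 counts was not tested.

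Levels were compared between members per kilobase of merged exons (CPM per kb). Without IFNγ, IRF3 stood highest, at 7.85 in A498 Cnsi and 19.3 in 786-O Cnsi, and IRF9 lowest of the tested members other than IRF8. The place of IRF9 is uncertain in every group, since 93.1% of its main transcript's exon bases are shared with a readthrough gene on the same strand. Whether reads of IRF9 were lost this way was not tested. In A498 Cnsi the order was IRF3, IRF5, IRF1, IRF2, IRF7 and IRF9, and in A498 PD-L1si the libraries of IRF3 (mean 7.64) and IRF5 (mean 7.32) overlapped. In 786-O Cnsi it was IRF3, IRF7 (6.02), IRF2 (4.55), IRF1 (3.14), IRF5 (2.01) and IRF9 (0.173). IFNγ put IRF1 first in every group that received it, at 118 ± 2.09 and 102 ± 1.93 CPM per kb in A498 Cnsi and PD-L1si and at 85.9 ± 5.38 and 89.1 ± 1.72 in 786-O. Next in A498 Cnsi IFNγ came IRF7 (18.9), IRF3 (9.35), and IRF2 (7.29) with IRF5 (7.15), whose libraries overlapped, and last IRF9 (0.346). In 786-O Cnsi IFNγ the order after IRF1 was IRF3 (37.1), IRF7 (18.0), IRF2 (11.4), IRF5 (2.33) and IRF9 (0.426). The rank of IRF1 under IFNγ held for all 3 gene lengths tried. The order of the other members depended in part on the length used. With the longest transcript as length, IRF1 (11.4) came above IRF3 (10.4) in A498 Cnsi. With the main (MANE Select) transcript, IRF7 (8.17) came below IRF2 (13.5) and IRF1 (10.8) in 786-O Cnsi. With that length, the libraries of IRF7 (25.7) and IRF3 (22.2) overlapped in A498 Cnsi IFNγ, as did those of IRF3 and IRF2 (21.7).

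The genes upstream of and beside the IRFs moved in part. Of all genes tested, 18.2% were called higher with IFNγ in A498 Cnsi and 11.1% in 786-O Cnsi. Of 16 genes of the IFNγ receptor, JAK-STAT and feedback list, 10 of 16 tested were called higher with IFNγ in A498 Cnsi (median log2 fold change 0.73, against -0.03 over all genes), led by SOCS1 (5.68), a feedback inhibitor of JAK kinases, USP18 (3.23), an inhibitor of type I interferon receptor signalling, and JAK2 (3.07). In 786-O, 8 of the 16 were at 0, and 5 of the 8 tested were called higher, among them SOCS1 (5.00), USP18 (2.40) and STAT2 (2.37), the partner of IRF9. Of 19 IRF activators and partners, 9 of 16 tested were called higher in A498 and 7 of 13 in 786-O. BATF2, a basic leucine zipper factor that cooperates with IRFs, led in both (8.03 and 7.19), followed in A498 by BATF3 (2.93) and the ubiquitin ligase TRIM21 (2.42), and in 786-O by TRIM21 (1.92) and IRF2BPL (1.11).

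Genes commonly named as IRF1 targets and as ISGF3 targets, listed with earlier results of these data known, rose with IFNγ almost without exception. Of all genes tested, 18.2% were called higher with IFNγ in A498 Cnsi and 11.1% in 786-O Cnsi. In A498 Cnsi, 17 of 18 IRF1-associated genes (median 4.25) and 18 of 18 ISGF3-associated genes (median 4.60) were called higher. In 786-O the counts were 16 of 16 tested (3.89) and 16 of 16 tested (2.82), with 2 genes of each list at 0. Among the IRF1-associated genes CXCL10, a chemokine for T cells, went from 1.39 ± 0.145 to 1655 ± 46.5 CPM in A498 and from 0.180 ± 0.0854 to 88.1 ± 7.95 CPM in 786-O. GBP5, a guanylate-binding protein, had log2 fold changes of 12.72 and 10.20, and CXCL9 of 13.59 and 8.96, where CXCL9 had 2 counts in all over the A498 Cnsi libraries, so the fitted value depends on the prior count. Among the ISGF3-associated genes the antiviral GTPase MX2 rose by 6.00 and 5.62 on the log2 scale and CMPK2, a mitochondrial nucleotide kinase, by 6.81 and 4.79, with OAS2 (6.44) in A498 and EPSTI1 (4.31) in 786-O. Of 10 genes in the list of interferon genes, 8 had a row and 3 were tested in each line. CCL5, a chemokine, rose by 4.42 in A498 and 2.78 in 786-O. IFNB1 went from 0 to 12 counts over 3 libraries in A498, and IFNL1 from 1 to 25 in 786-O.

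With PD-L1si and no IFNγ, most ISGF3-associated genes and 9 of 18 IRF1-associated genes were called lower in A498, where 5.6% of all genes were. Of the ISGF3-associated genes 17 of 18 were called lower (median -1.21, against -0.0031 over all genes), led by MX2 (-2.66), OAS2 (-2.50) and OAS1 (-1.78), both oligoadenylate synthetases, and the exception was IFI44L (-0.46). The IRF1-associated genes had a median of -0.68, and those called lower were led by CD274 itself (-2.47), CXCL11 (-2.45) and CXCL10 (-2.39). CD274 is the target of the siRNA, so its fall was built into the design. Among activators and partners, BATF3 (-1.86), the kinase gene IKBKE (-0.71) and TRIM21 (-0.67) fell most, and USP18 (-0.53) and CCL5 (-0.67) fell as well. In 786-O the called list genes were SOCS1 (0.88) and IFI6 (0.51), both higher, and CD274 (-1.42), and the medians were 0.14 and -0.09 over 16 ISGF3-associated and 16 IRF1-associated genes.

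Under IFNγ, 14 of 18 ISGF3-associated genes were called lower with PD-L1si in A498 (median -0.69), led by RSAD2 (-1.29), which encodes viperin, MX2 (-1.08) and IFIT2 (-0.89). Of the IRF1-associated genes 4 of 18 were called lower (median -0.19), namely CD274 (-2.81), CXCL10 (-0.85), CXCL11 (-0.85) and CXCL9 (-0.60). Over all genes tested, 5.75% were called lower in this comparison. CCL5 (-1.30), BATF3 (-1.18), USP18 (-0.63) and IKBKE (-0.51) fell too. In 786-O, CD274 (-0.94) was the 1 gene of these lists called. The interaction in A498 was called higher for 1.81% of all genes. It was called higher for 7 of 18 IRF1-associated genes, TAP1 (0.57), PSMB9 (0.96), GBP1 (1.00), GBP4 (1.07), GBP5 (2.09), CXCL10 (1.54) and TNFSF10 (0.71). It was also called higher for 6 of 18 ISGF3-associated genes, MX1 (0.58), MX2 (1.58), OAS1 (1.12), OAS2 (1.91), XAF1 (1.29) and EPSTI1 (1.42), and for TRIM21 (0.51), and lower for SOCS3 (-0.71), a feedback inhibitor. In 786-O it was called for IFI6 (-0.52).

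**Figure D4:**
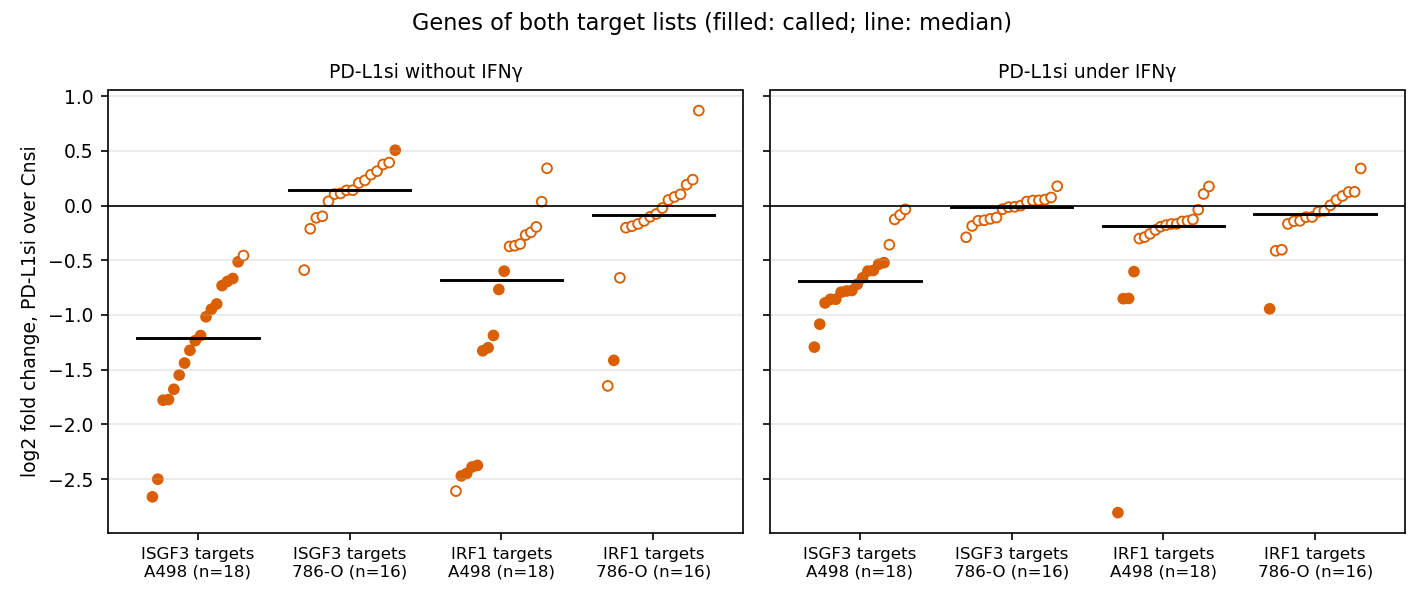
Log2 fold change of PD-L1si over Cnsi, without and under IFNγ, for each gene of the ISGF3-associated and IRF1-associated lists, 18 genes in A498 and 16 in 786-O, with filled points for called genes and a line at the median. The A498 medians lie at -1.21 and -0.68 without IFNγ and at -0.69 and -0.19 under it, while the 786-O medians without IFNγ lie at 0.14 and -0.09 and the filled 786-O points are IFI6 and CD274.

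The genes whose profile over the 8 group means lay nearest to each member were found by the root mean square difference of log2(CPM + 1), centred within each line, among 12590 genes, as a description over group means that share libraries. Nearest to IRF1 was IRF1-AS1 (0.238), whose reads may not be fully told apart from those of IRF1, then ENSG00000284734 (0.248) and ENSG00000258666 (0.257). For IRF2 the nearest were IL7 (0.0747), ALPK1 (0.0792) and GSTK1 (0.0795). IRF3 lay nearest to PSMA3 (0.0262), a proteasome subunit, ACOT7 (0.0464) and ANKRD13A (0.0544). IRF7 lay nearest to MAFF (0.128), ODF3B (0.212) and the complement gene CFB (0.218). IRF9 lay nearest to the cytokine gene IL23A (0.0762), RBP5 (0.0924) and ENSG00000267102 (0.0925). IRF5, which varied little, lay nearest to NOXO1 (0.0434), ARF1 (0.0474) and UBE2MP1 (0.0478).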

How the data were processed

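Poly(A) RNA of A498 and 786-O cells was made into TruSeq Stranded libraries. The authors demultiplexed reads with bcl2fastq (version 2.19.0), trimmed with Trimmomatic (0.36.6), aligned to GRCh38 with HISAT2 (2.1.0) and counted per gene with featureCounts (1.6.3, GENCODE 33, mapping quality of at least 12, strand setting 1), and the deposited values are raw counts of reads per gene.

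Gene symbols and positions were taken from GENCODE 44 by Ensembl identifier (39148 of 39321 rows matched, 173 did not). Counts were scaled by TMM, and CPM values were computed here from the deposited counts. Genes with at least 10 counts summed over the 3 libraries of a group were tested (20916 in A498, 21209 in 786-O, 24126 in the model of both lines) with the quasi-likelihood test of edgeR 4.0.16 in R 4.3.3, on 4 group means per line, with Benjamini-Hochberg adjustment over all genes. The SE is the log2 fold change divided by the square root of F. Alternatives, among them DESeq2 1.42.0, are described in the closing section. The test was tried on simulated data first. All 24 replicate pairs differed by more than sampling noise (chi-square over degrees of freedom 1.63 to 24.3). Figures were drawn with matplotlib 3.10.9.

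The members and gene lists were chosen with earlier results of these data known. The rule named all 8 members in every comparison (IRF4 was tested in neither line and IRF8 in 786-O alone, so their counts stand in place of tests), with the 3 genes of the nearest profile for each member tested in both lines (mean of at least 1 CPM per line), up to 3 called genes of a list with the largest fold change, every list gene called in the interaction, and CD274. IFI44L, IFNB1 and IFNL1 and further genes named to complete a count were chosen after their values were seen. Some list genes are not reported here.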

Additional observations from a re-analysis of the deposited data

Results flagged for a closer look

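The response of 3 members differed between the lines by the test of the difference itself in edgeR, written as 786-O minus A498 on the log2 scale. For IFNγ in Cnsi the difference was 0.63 for IRF3, whose rise was larger in 786-O, and -1.59 for IRF7, whose rise was larger in A498. In that comparison 21.2% of all genes were called. For PD-L1si without IFNγ, a comparison added after the values were seen, the difference was 0.91 for IRF1 and 1.50 for IRF7. Both fell in A498 and were not called in 786-O, and 3.16% of all genes were called for this difference. Line and sequencer cannot be told apart in these 4 differences. For PD-L1si without IFNγ, CD274 itself fell less in 786-O (log2 fold change -1.42) than in A498 (-2.47). Whether this unequal silencing has a part in the IRF1 and IRF7 differences was not tested. No group held enough libraries to be tested for a library far from the others, since each group had 3.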

How the results depend on the processing

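Over 2089 refits of the members' values, 2016 kept their direction and their side of the threshold, 13 gained a call, 14 lost one and 46 changed sign, none of which was called. With a log2 fold change over 1 required, 1 member in place of 2 was called in A498 for PD-L1si without IFNγ, 0 in place of 1 under IFNγ and 0 in place of 2 for the interaction, and 1 in place of 2 for each of the line differences of IFNγ in Cnsi and PD-L1si without IFNγ. The lists then gave, in A498, 11 ISGF3-associated genes in place of 17 without IFNγ, 2 in place of 14 under IFNγ, and 1 IRF1-associated gene in place of 4 under IFNγ, and in 786-O 0 in place of 1. With no fold-change threshold, 3 members in place of 1 were called in A498 for PD-L1si under IFNγ and 2 in place of 0 for its line difference. The lists then gave 15 IRF1-associated genes in place of 4 under IFNγ in A498. In 786-O they gave 1 ISGF3-associated gene in place of 0 in each comparison, and 3 and 5 IRF1-associated genes in place of 1 without and under IFNγ. In these cases the threshold itself makes the difference.

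Leaving out each library in turn gave 0 to 1 called members in A498 for PD-L1si under IFNγ, 5 to 6 in 786-O for IFNγ in Cnsi, and 0 to 1 for the line difference of PD-L1si under IFNγ, where IRF7 reached 0.51 without A498 Cnsi IFNγ replicate 2. Values near 0 changed sign in these refits. The ranges were -0.065 to 0.016 (IRF3 in A498) and -0.065 to 0.0066 (IRF3 in 786-O) for PD-L1si without IFNγ. For the same comparison in 786-O they were -3.13 to 0.33 (IRF8) and -0.091 to 0.35 (IRF9), and under IFNγ in A498 -0.0041 to 0.32 (IRF9). For the interaction they were -0.027 to 0.052 (IRF2 in A498) and, in 786-O, -0.076 to 0.010 (IRF1), -0.054 to 0.018 (IRF3), -0.016 to 0.14 (IRF5) and -0.032 to 0.41 (IRF9). For the line differences they were -0.026 to 0.036 (IRF2) and -0.015 to 0.32 (IRF9) under IFNγ, -0.10 to 0.031 (IRF2) and -0.057 to 0.020 (IRF3) without IFNγ, and -0.00016 to 0.38 (IRF9) for IFNγ in Cnsi. The IRF2 line difference under IFNγ (-0.0062) was 0.017 with RLE scaling, 0.017 with DESeq2, 0.0065 with filterByExpr, 0.0056 with no filter and 0.015 with protein-coding genes only, and that of IRF3 without IFNγ (-0.020) was 0.0012 with filterByExpr. The cause was not tested. The filterByExpr filter removed IRF8.

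Deviations of same-numbered replicates had a mean correlation of 0.0362 in A498 and 0.0218 in 786-O, against -0.0181 and -0.0108 for other pairs. Of 18 same-numbered pairs, 1 and 5 were over 0.1, and 7 and 4 of 12 libraries were closest to their own number. Whether same-numbered replicates belong together was not tested. With the replicate number as a block, IRF7 with PD-L1si under IFNγ in A498 had a log2 fold change of -0.53 (edgeR adjusted p = 8.36e-10).

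Order positions of the members per kilobase were kept in 48 of 48 cases with RLE scaling, 41 with the longest transcript and 35 with the MANE Select transcript, added after the data were seen. IRF4, IRF8 and IRF9 had at most 98 counts in a library, so their values are imprecise. For IRF9, 93.1% of the exon bases of its main transcript are shared with a readthrough gene on the same strand. Whether its low counts come from depth, from reads lost to this overlap or from low expression was not tested.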
